A study of Rattus norvegicus with 2 samples.

Results

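Spp1-high smooth muscle cells of the rat carotid artery were chosen by their counts of Spp1, the gene of osteopontin, among cells that carried contractile genes. A cell was kept with at least 2000 UMIs (unique molecular identifiers, each standing for 1 captured RNA molecule) and at most 20% of them from mitochondrial genes. It was called smooth muscle when Acta2, Tagln, Myl9, Myh11, Cnn1 and Cald1 together held at least 1% of its UMIs (the contractile share) and the fibroblast genes Col1a1, Col3a1, Dcn and Lum held less than 1% (the fibroblast share). Spp1-high cells had at least 3 Spp1 UMIs that made up at least 0.03% of the UMIs of the cell. These were 808 of 3338 smooth muscle cells, out of 6658 kept cells and 8977 barcodes. They were compared with the 2358 smooth muscle cells of the same libraries that had fewer than 3 Spp1 UMIs, called Spp1-low, and 172 cells between both limits stood apart.

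Single cells were profiled on the 10x Genomics platform in 2 libraries of arteries from the same 2 male SD rats, labelled 12 weeks old. The control library held their untreated left carotid arteries, and the injured (case) library their right carotid arteries 28 days after balloon injury. Both libraries pooled the 2 rats and all cells of the artery wall, the rats cannot be told apart within them, and each control artery came from an animal that had been operated on the other side. With 1 library per group no test could be made: the 95% intervals given in parentheses cover counting error alone, exact Poisson for UMI sums, exact binomial for shares and for ratios. Genes are counted as past a ratio of 1.5 (or its inverse) without any statement of significance.

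The control library held 24968329 UMIs in 3321 barcodes and the injured library 28232614 in 5656 barcodes. Spp1-high cells numbered 354 in the control library, with a median of 13242.5 UMIs per cell (range 2263 to 30942), and 454 in the injured library, with 6412.5 (2260 to 20657). In both libraries they were deeper than the Spp1-low cells, which had medians of 11885 and 5445 UMIs. A total of 21 barcode sequences occurred in both libraries, and 3 Spp1-high cells carried one of them.

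Osteopontin is a secreted, acidic glycoprotein that binds integrins and the hyaluronan receptor CD44, and it restrains the growth of mineral crystals. Vascular smooth muscle cells (VSMCs) that leave the contractile state are known to make it, together with other matrix proteins, and its gene is a common marker of such modulated VSMCs. Contractile VSMCs are known by smooth muscle actin, SM22 (Tagln) and smooth muscle myosin heavy chain (Myh11).

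The sequences before the start sites of Spp1 and of Vcam1, a gene that stood higher with it below, are shown to place the genes. They are the 250 bases upstream of the start given by RefSeq on GRCr8, chr14:5619805-5620054 for Spp1 and chr2:206742784-206743033 for Vcam1, both on the minus strand, written 5′ to 3′ on the strand of the gene. The Spp1 window lies inside the span of a longer RefSeq gene model. Capitals mark letters that match one of the motifs searched on both strands.
Spp1: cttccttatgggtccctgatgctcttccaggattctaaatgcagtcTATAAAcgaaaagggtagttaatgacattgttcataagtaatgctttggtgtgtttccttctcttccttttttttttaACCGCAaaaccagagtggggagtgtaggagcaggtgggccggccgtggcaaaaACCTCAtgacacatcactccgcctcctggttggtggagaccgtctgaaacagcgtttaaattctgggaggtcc
Vcam1: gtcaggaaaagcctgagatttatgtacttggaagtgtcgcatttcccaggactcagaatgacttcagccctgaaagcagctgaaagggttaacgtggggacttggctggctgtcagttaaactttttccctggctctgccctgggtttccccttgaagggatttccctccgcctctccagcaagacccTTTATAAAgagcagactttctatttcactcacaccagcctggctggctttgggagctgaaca
The TATA box was searched as TATAAA, the AP-1 motif as TGANTCA, the RUNX motif as TGNGGT and the TEAD motif as GGAATG, beside the CArG box of serum response factor. Of 9 genes looked up, 6 matched (Spp1, Postn, Vcam1, Gja1, Ltbp2 and Sparc), and Fn1, Prss23 and Mmp2 did not. TATAAA stood 204 bases before the start of Spp1, 44 before that of Postn and 60 before that of Vcam1, where it overlaps a match on the opposite strand, and 12.9% of 33469 rat promoter windows of this length hold it. TGNGGT had 2 matches before Spp1 and 1 each before Ltbp2 and Sparc, and 41.0% of all windows hold it. TGANTCA was found 58 bases before Gja1 (6.34% of all windows) and GGAATG 33 bases before Sparc (12.1%), while the letters of the CArG box (1.497%) were not found in the 6 windows. Other motifs were not searched, and these matches describe letters, not bound sites.

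Smooth muscle identity was checked on the genes that named the class. Tagln stood at 12270.3 CPM (its UMI sum over the cells divided by their total without Spp1, times 1000000) in control Spp1-high cells and at 9086 CPM in injured ones. Myh11 was at 4343 and 4758 CPM. These genes were part of the choice of cells, so their levels are a description and no result. The median contractile share was 2.38% of UMIs against 2.67% in Spp1-low cells of the control library, and 1.92% against 2.04% in the injured library. The median fibroblast share was 0.353% against 0.279% and 0.327% against 0.256%.

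Markers of immune, endothelial, Schwann and red cells were low in Spp1-high cells. The 15 macrophage markers summed to 10.98 CPM in control Spp1-high cells, less than the 14.4 CPM of Spp1-low cells, with Cd68 the most abundant at 3.38 CPM and Ncf4, C1qa, Ctss and Ptprc at 0. For injured cells the sum was 19.6 against 61.4 CPM, Cd74 was the most abundant at 10.1 CPM, and Ncf4, C1qb, Tyrobp, Ptprc and Aif1 were at 0. At least 3 macrophage UMIs were found in 0 of 354 control and 2 of 454 injured Spp1-high cells. The 8 endothelial markers summed to 9.72 and 10.7 CPM (2.01 and 12.5 in Spp1-low cells), led by Vwf. All 5 T cell markers were at 0 in both libraries. The 6 Schwann cell markers summed to 19.6 and 29.7 CPM (16.4 and 21.5 in Spp1-low cells), led by Cnp, with Sox10 and Ncmap at 0. The 7 fibroblast markers outside the choice of cells summed to 323 and 367 CPM (304 and 309.6 in Spp1-low cells), led by Gsn at 277 and 320.5 CPM, which smooth muscle also makes, and Pdgfra was at 0.634 and 0.946 CPM. The 5 pericyte markers summed to 238 and 305 CPM (231 and 281 in Spp1-low cells), led by Abcc9, while Rgs5 was at 1.69 and 0.631 CPM. The 2 red cell genes summed to 4.65 and 5.05 CPM (3.102 and 19.998 in Spp1-low cells), led by Hbb.

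Spp1 itself reached 639 CPM (616 to 662) in control and 770 CPM (739 to 801) in injured Spp1-high cells, where these totals include Spp1. It was at 81.0 and 117 CPM in Spp1-low cells, a gap that the choice of cells had set. These levels do not compare the libraries, since 3 UMIs made up a larger share of the less deeply sequenced injured cells. Spp1-high cells with exactly 3 UMIs had a median Spp1 share of 0.0521% in the injured and 0.0367% in the control library. In injured Spp1-low cells with exactly 2 UMIs this median was 0.0332%, above the limit of 0.03%. Per cell the control Spp1-high cells had a median of 7 Spp1 UMIs (quartiles 5 and 10, highest 43), and the injured ones 4 (quartiles 3 and 6, highest 27). The 10 cells with the most Spp1 held 11.3% and 8.31% of the Spp1 UMIs, and the rule itself asked for 3 in every cell. No gap separated the classes. In the control library 28 Spp1-high cells lay just inside the limit, at 0.03% to 0.033%, and 37 cells with 3 or more Spp1 UMIs lay just outside, at 0.027% to 0.03%, and in the injured library these numbers were 10 and 8. In the injured library 145 Spp1-high cells had exactly 3 UMIs and 328 Spp1-low cells had exactly 2, against 31 and 136 in the control library.

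Spp1-high cells made up 36.1% (33.1 to 39.2) of the control and 19.3% (17.7 to 20.9) of the injured smooth muscle cells as sequenced, but injured cells were less deeply sequenced. After every cell was thinned to 5000 UMIs, which left out 67 control and 855 injured cells, the shares were 21.7% (19.0 to 24.5) and 17.0% (15.1 to 19.0). The gap between the libraries was thus smaller at 5000 UMIs per cell, and the thinned intervals lay just apart. With all cells thinned to 2000 UMIs and 1 Spp1 UMI required, 37.9% (34.9 to 41.0) and 33.2% (31.3 to 35.2) of cells qualified, and these intervals overlap. Spread over all smooth muscle cells, the level of Spp1 was 317 CPM (307 to 326) in the control and 265 CPM (257 to 274) in the injured library. In cells with a fibroblast share of at least 1% and a contractile share under 1%, which serve as background, Spp1 was at 34.8 CPM and 48.5 CPM, and 1.06% and 1.87% of them reached 3 Spp1 UMIs at 5000 UMIs per cell. Macrophage-marker cells held 26.3 CPM in the control library and 123 CPM in the injured one, where 5 cells carried 78.3% of it. Spp1 was not limited to smooth muscle cells. The 175 control and 680 injured cells with both shares under 1% and no macrophage or endothelial call had 357 CPM (322 to 394) and 201 CPM (185 to 217), of which 5 cells carried 49.7% and 18.1%, and 17.4% and 11.7% of them reached 3 Spp1 UMIs at 5000 UMIs per cell. Cells with both shares at 1% or more, 65 in each library, had 410 CPM and 232 CPM.

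**Figure D1:**
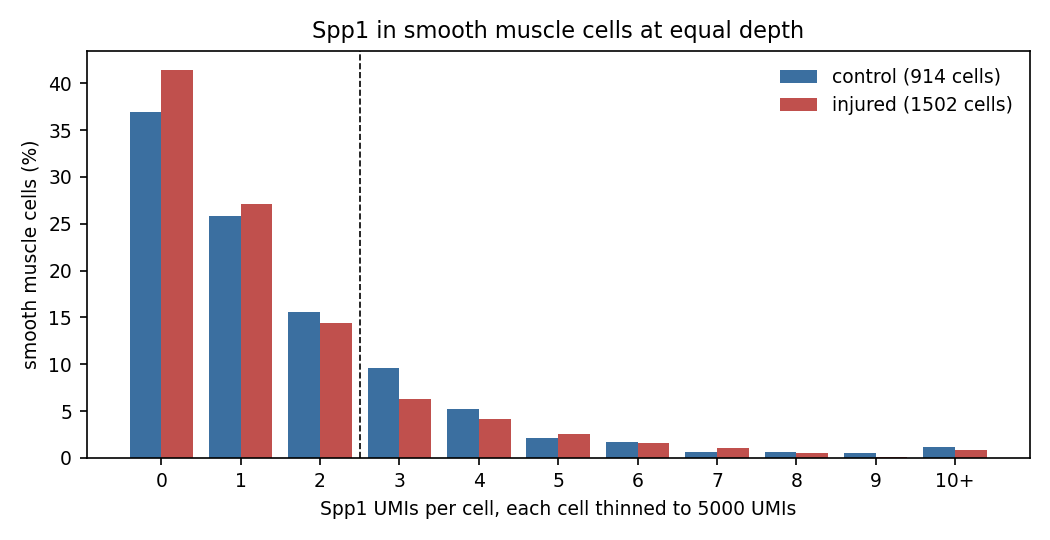
Share of smooth muscle cells (vertical axis, %) with each number of Spp1 UMIs (horizontal axis) after every cell was thinned to 5000 UMIs, in 914 control and 1502 injured cells. The dashed line marks the limit of 3 UMIs, the last bin pools cells with 10 or more UMIs (1.20% and 0.799%), and up to 9 UMIs neither library has a second peak (37.0% and 41.4% of cells at 0).

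At equal depth Spp1 varied more between cells than counting alone would give. The variance of the Spp1 count was 2.69 times its mean in the control and 2.98 times its mean in the injured library, where a value of 1 stands for pure counting. Myh11, at a far higher mean, gave 5.85 and 6.78.

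The comparison of Spp1-high with Spp1-low cells asked what else these cells carried. Genes were compared at a mean of at least 100 CPM over both groups of cells. In the control library 3 of 1399 genes were past a ratio of 1.5 in the higher direction (0.214%) and 0 in the lower (0%). In the injured library 2 of 1305 were higher (0.153%) and 1 was lower (0.0766%). Of 1187 genes compared in both, 2 were higher in both libraries (0.168%) and 0 lower (0%), so few genes were past this ratio. The median gene had a ratio of 1.02 in each library. Over the 1187 genes the log2 ratios of the control and injured libraries had a Pearson correlation of 0.63, a description over genes that share libraries and the deeper sequencing of Spp1-high cells.

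The 2 genes higher in both libraries were Postn and Vcam1. Postn (ENSRNOG00000012660) encodes periostin, a matricellular protein that binds integrins and collagen. It was at 319 CPM (303 to 335) in Spp1-high against 148 CPM (138 to 159) in Spp1-low cells of the control library. In injured cells it was at 325 CPM (305 to 345) against 142 CPM (135 to 150). The ratios were 2.15 (1.97 to 2.34) and 2.28 (2.11 to 2.47), and the level was alike in the 2 libraries. Vcam1 (ENSRNOG00000014333) encodes the adhesion molecule to which the leukocyte integrin VLA-4 binds. It was at 210 CPM (197 to 223) against 101 CPM (92.7 to 109.7) in the control library. In injured cells it was at 155 CPM (142 to 170) against 81.3 CPM (76.0 to 86.9). There Vcam1 reached the mean of 100 CPM, and so the count of genes higher in both libraries, only through the Spp1-high cells. Among injured cells with a contractile share of at least 2% it was under that limit, at 122 against 72.6 CPM. Its ratios were 2.08 (1.87 to 2.31) and 1.91 (1.71 to 2.13). With the 3% of cells richest in each gene left out of both groups, an alternative added after the data were seen, Postn had ratios of 2.25 and 2.49 and Vcam1 of 1.92 and 1.97.

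Both genes were also present in more of the Spp1-high cells. At 5000 UMIs per cell, a Postn UMI was found in 48.4% (43.0 to 53.8) of 345 control Spp1-high cells against 33.2% (28.7 to 37.9) of 419 Spp1-low cells. Among injured cells the shares were 51.4% (46.1 to 56.6) of 364 and 34.9% (32.1 to 37.8) of 1116 cells. Vcam1 was found in 41.2% against 25.5% of control and in 32.97% against 22.8% of injured cells. In macrophage-marker cells of the same depth, which serve as background, Postn was found in 9.30% and 1.61% and Vcam1 in 4.65% and 11.3%. In the fibroblast-gene cells Postn was found in 5.00% of control and 20.8% of injured cells, and Vcam1 in 22.4% and 22.3%, the latter close to its shares in Spp1-low cells. The thinning left out 9 and 90 Spp1-high and 58 and 765 Spp1-low cells, and as sequenced Postn was found in 63.8% and 53.1% of Spp1-high cells. Both genes together were found in 23.5% (19.1 to 28.3) of control Spp1-high cells against 12.9% (9.83 to 16.5) of Spp1-low cells, and in 20.1% (16.1 to 24.5) against 11.1% (9.33 to 13.1) in the injured library. One or the other was found in 66.1% and 64.3% of Spp1-high cells against 45.8% and 46.6% of Spp1-low cells, so many Spp1-high cells showed neither at this depth.

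At a ratio of 1.25, a limit added after the values were seen, 32 genes were higher (2.29%) and 7 lower (0.5%) in control Spp1-high cells, and 25 were higher (1.92%) and 5 lower (0.383%) in injured ones. A total of 9 genes were higher in both libraries (0.758%) and 0 lower (0%). Spp1-high cells were deeper, and with Spp1-low cells weighted to the same depth 5 genes were higher and 1 lower in both, the higher ones including Postn, Vcam1, Gja1 and Prss23, while in the injured library Fn1 was at 1.19, Mmp2 at 1.20, Ltbp2 at 1.18 and Sparc at 1.21. With TMM scaling, the trimmed-mean scaling of edgeR, 5 were higher and 2 lower in both. Among cells with a contractile share of at least 2%, 8 were higher and 1 lower, and in the injured library Gja1 was at 1.10 and Sparc at 1.18. Beside Postn and Vcam1 the 9 genes of the unscaled, unweighted comparison were Fn1, Gja1, Prss23, Mmp2, Ltbp2 and Sparc, and the ninth was the fibroblast gene Col3a1 of the choice of cells. Fn1 (fibronectin, the matrix ligand of several integrins) was at 397 against 251 CPM in the control library, a ratio of 1.58 (1.47 to 1.69), and was the third gene past 1.5 there. Injured cells had 305 against 217 CPM, a ratio of 1.41 (1.302 to 1.515). Gja1, which encodes the gap junction protein connexin 43, was at 318 against 230 CPM and at 317 against 229 CPM, with a ratio of 1.38 (1.28 to 1.49) in each library. Mmp2, a secreted gelatinase, had ratios of 1.28 and 1.36 and was found in 63.2% and 64.3% of Spp1-high cells at 5000 UMIs, against 97.4% and 97.8% of fibroblast-gene cells, and Prss23, a secreted serine protease, 1.31 and 1.42. Ltbp2, an elastic fibre protein of the latent TGF-beta binding family, had 1.43 and 1.28. Sparc, a collagen-binding matricellular protein, was the most abundant of them, at 5922 against 4518 CPM (ratio 1.31) and 3701 against 2954 CPM (ratio 1.253).

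Few genes were lower, and by less. Id1, a BMP target that blocks basic helix-loop-helix factors, was the 1 gene past 1.5 in the lower direction, in the injured library, at 226 CPM (210 to 243) against 342 CPM (331 to 353), a ratio of 0.66 (0.61 to 0.72). This lay close to the limit, and the ratio was 0.68 with depth weighting, 0.67 with means of per-cell CPM and 0.70 with a contractile share of at least 2%, no longer past it. In the control library it was at 485 against 569 CPM, a ratio of 0.85 (0.81 to 0.90). The 12 genes with the lowest ratios in both libraries, a group added after the values were seen, also held Pycard, Irf1, Pcp4l1, Egr1, Ppp1r10, Actg2, Junb, Synpo2, Btg2, Dnajb1 and Kcnk3. Pycard, the inflammasome adaptor ASC, was at 126 against 169 CPM and 264 against 324 CPM, ratios of 0.74 and 0.82. Irf1, a transcription factor of the interferon response, had 0.79 and 0.82, and Actg2, the enteric smooth muscle actin, 0.80 and 0.86.

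**Figure D2:**
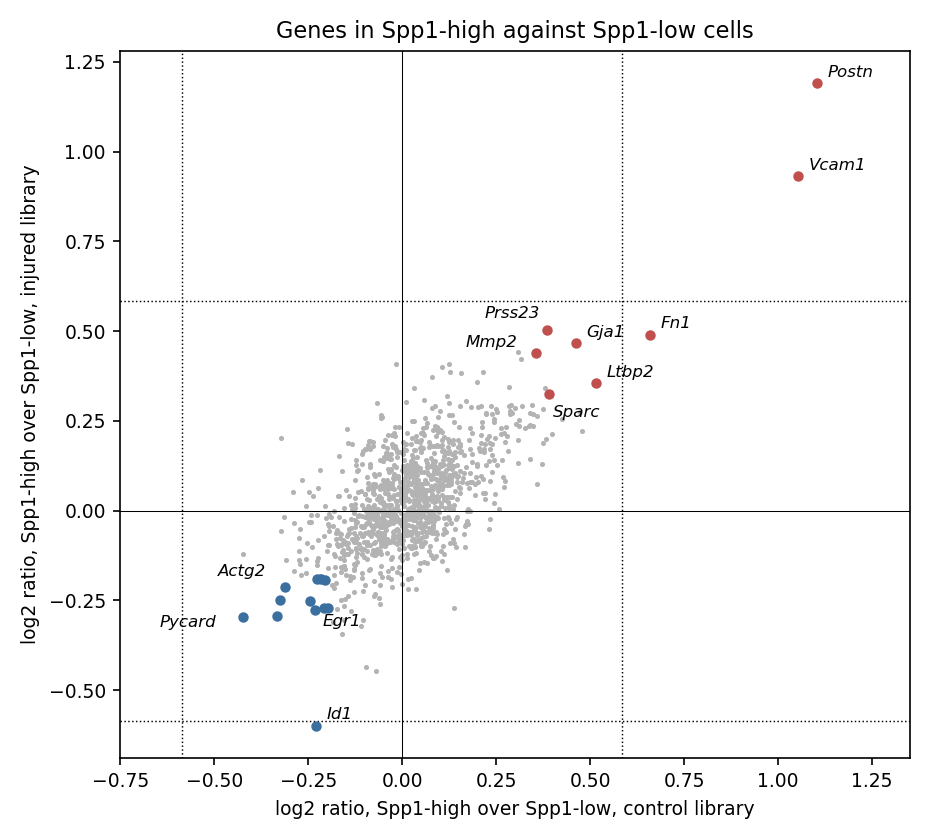
Log2 ratio of Spp1-high over Spp1-low cells for each of 1187 genes in the control library (horizontal axis) and the injured library (vertical axis), with dotted lines at a ratio of 1.5. Postn and Vcam1 stand alone beyond both lines, named genes higher in both libraries are red and the 12 lowest are blue.

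Postn, Vcam1 and Fn1 were higher in the top Spp1 class than in cells without Spp1, and so were the fibroblast collagens Col1a1 and Col3a1. Smooth muscle cells were split by the Spp1 share of their UMIs into 0, above 0 to 0.03%, 0.03 to 0.05%, 0.05 to 0.1% and 0.1% or more, without regard to the limit of 3 UMIs. Postn in the control library was at 113, 159, 245, 322 and 622 CPM in these 5 classes. In injured cells it was at 106, 187, 256, 271 and 362 CPM, so each class was above the one before in both libraries, though the intervals of the injured classes at 0.03 to 0.05% and 0.05 to 0.1% overlap. Vcam1 was flat between the 2 lowest control classes (102 and 94.9 CPM) and then reached 140, 215 and 493 CPM. Injured cells had 62.7, 95.4, 102, 168 and 191 CPM. The top class held 46 control and 103 injured cells, and its Vcam1 was higher in the control (437 to 554) than in the injured library (158 to 230). Fn1 went from 221 to 544 CPM in the control library and from 185 to 332 CPM in the injured one. Myh11 was lower in the cells richest in Spp1, at 3770 CPM in the top control class against 4832 CPM with no Spp1, and at 4086 against 5160 CPM in the injured library. Myh11, Col1a1 and Col3a1 were part of the choice of cells, so their levels across the classes are a description and no result. The cells between both Spp1 limits had Postn at 155 CPM (139 to 171) and Vcam1 at 91.4 CPM (79.9 to 104) in the control library, close to the Spp1-low cells. In the injured library, with 22 such cells, Postn was at 259 CPM (204 to 324), above the Spp1-low cells, and Vcam1 at 78.3 CPM (49.6 to 117). Depth moved with the classes at their lower end: control cells without Spp1 had a median of 10582 UMIs and the other control classes 12726 to 13933, and injured cells without Spp1 had 5154.5 and the others 5591 to 6271. The 3 upper classes had medians of 12780.0, 12881 and 12726 UMIs in the control and of 6021, 5600.5 and 5591 in the injured library. The median fibroblast share moved with the classes too, from 0.255% in the lowest to 0.447% in the top control class and from 0.240% to 0.356% in the injured library. Col3a1 went from 1185 to 2107 CPM and from 1198 to 1918 CPM, and Col1a1 from 1451 to 2047 and from 1217 to 1648 CPM. The part of depth and of fibroblast genes in the gradient was not tested.

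**Figure D3:**
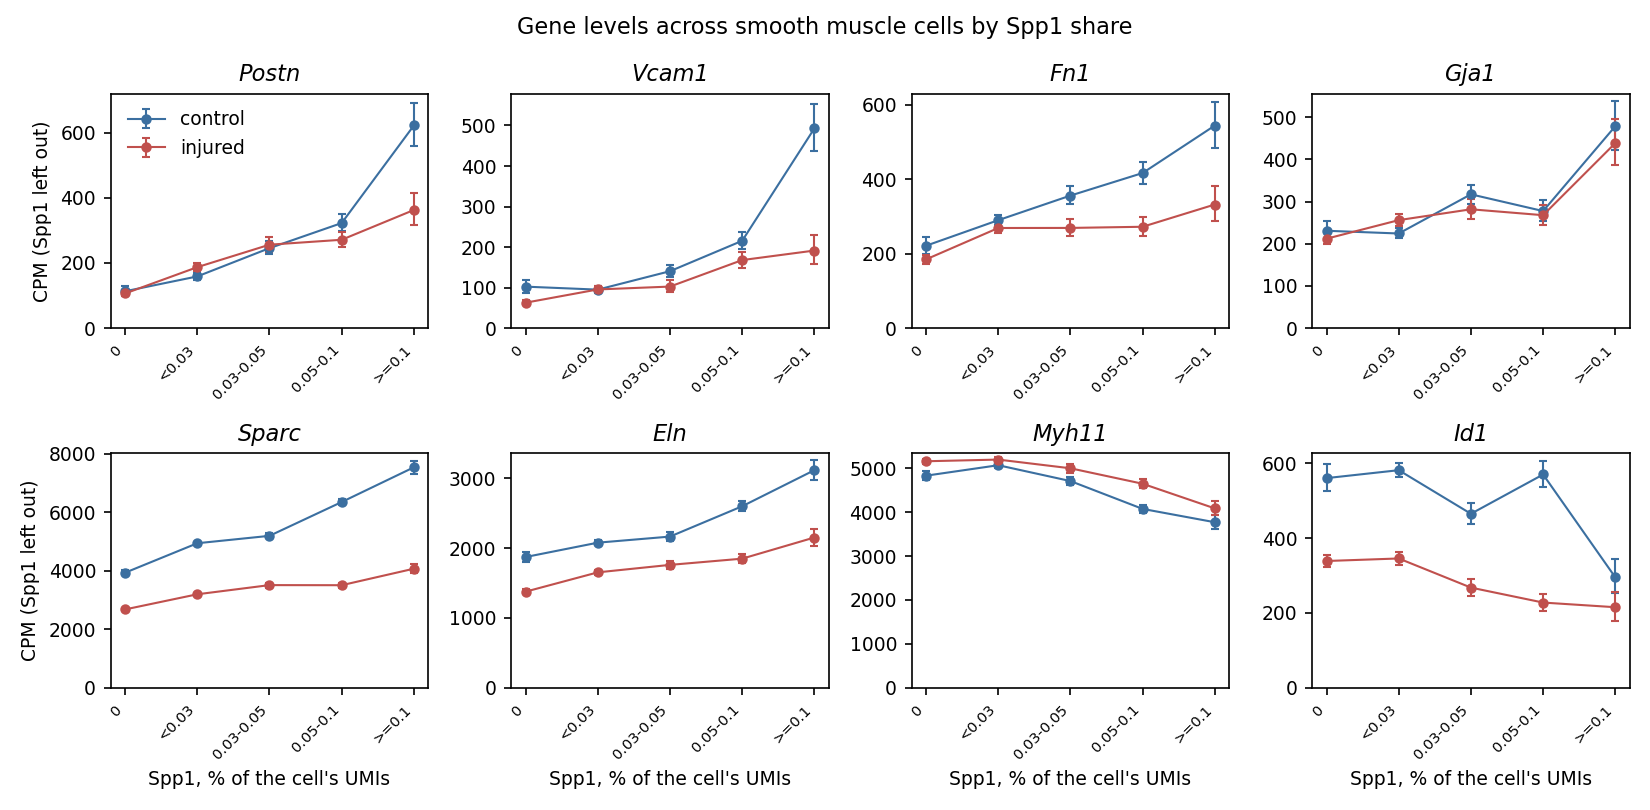
CPM of 8 genes (vertical axes, from 0) in smooth muscle cells split into 5 classes by the Spp1 share of their UMIs (horizontal axes), with exact 95% Poisson intervals as bars, in the control (blue) and injured (red) library. Postn, Vcam1, Fn1, Gja1, Sparc and Eln are highest in the top class, while Myh11 and Id1 are lowest there in both libraries. Myh11 was part of the choice of cells and is shown as a description.

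A stricter Spp1 limit gave more genes past 1.5, on fewer cells and thus less precise ratios. With at least 5 Spp1 UMIs making up 0.1% of the cell, 43 control and 89 injured cells remained, and 8 genes were past 1.5 in the higher and 7 in the lower direction in both libraries, of 1194 compared. The higher genes were Postn (ratios 4.24 and 2.72), Vcam1 (4.87 and 2.495), Gja1 (2.10 and 1.86), Fn1 (2.15 and 1.59), Prss23 (1.76 and 1.68), Arpc1b, an Arp2/3 actin subunit (1.81 and 1.67), Prnp, the prion protein gene (1.86 and 1.58), and S100a10, the annexin A2 partner (1.94 and 1.51). The lower genes were Id1 (0.52 and 0.57), the Notch target Hes1 (0.54 and 0.59), Irf1 (0.63 and 0.66), the contractile gene Smtn (0.63 and 0.66) and the immediate early genes Nr4a1 (0.59 and 0.66), Fos (0.66 and 0.57) and Egr1 (0.62 and 0.66).

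Matrix genes stood mostly above the median gene. The median of all compared genes was itself above 1, at 1.02 in each library, so most genes were above 1. Counts of genes above or below 1 in this and the later lists are therefore a description only. Of 15 collagen genes outside the choice of cells, 5 were compared in the control library and 4 in the injured one, and each was above 1 there, with medians of 1.22 and 1.20 against 1.02 for all genes. Col18a1 (the source of endostatin) was at 1630.1 against 1333 CPM and 1434 against 1169 CPM, ratios of 1.22 and 1.23, and Col15a1 had ratios of 1.27 and 1.21. Of the elastic fibre and other matrix genes 8 were compared, 7 were above 1 in the control and 8 in the injured library, and the medians were 1.20 and 1.15. Eln, the gene of elastin, was at 2429.5 against 1994 CPM and at 1922 against 1515 CPM, ratios of 1.22 and 1.27. The crosslinking enzyme Lox had 1.23 and 1.22, Fbn1 (fibrillin-1) 1.26 and 1.18, and Bgn (biglycan) 1.16 and 1.13, while Vcan (versican) had 0.97 and 1.05. All 4 latent TGF-beta binding protein genes, a list made after values were seen, were above 1 in both libraries, with medians of 1.26 and 1.24. The 4 fibroblast genes of the choice of cells are not counted here: as a description, Col3a1 had 1.301 and 1.27 and Lum 1.39 and 1.21.

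Of the 13 matricellular genes 7 were compared. Postn alone was past 1.5 in each library, where 0.214% (control) and 0.153% (injured) of all compared genes were higher. In each library 4 were above 1 and 3 below, with a median of 1.09 in both, so the list lay on both sides. The growth factor-binding gene Ccn3 was the most abundant, at 8070.2 against 6913 CPM (ratio 1.17) and 4565 against 4178 CPM (ratio 1.09). Sparcl1 had 0.89 in both libraries and Ccn1 0.96 and 0.94, while Ccn2 (connective tissue growth factor) had 1.09 and 1.23. Among 18 proteases and inhibitors, 8 of 11 compared were above 1 in the control and 8 of 10 in the injured library, with medians of 1.18 and 1.12. Timp3, the matrix-bound inhibitor, had 1.18 and 1.11, Serpine2 (a thrombin inhibitor) 1.26 and 1.18, and Plat (tissue plasminogen activator) 1.297 and 1.14. Ctsk, the collagen-cleaving cathepsin K, was under the 100 CPM limit at 69.3 CPM (62.0 to 77.2) against 34.7 (29.9 to 40.0) in the control library and 41.3 (34.5 to 49.0) against 28.8 (25.7 to 32.2) in the injured one.

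Few osteopontin receptors were high enough to compare. Of 13 relatives and receptors 2 were compared in the control and 3 in the injured library, and 0 were past 1.5. Itga8, the alpha 8 integrin chain that pairs with beta 1 and binds osteopontin, was abundant at 3471 against 3236 CPM and 2972 against 2767 CPM, with a ratio of 1.07 in each. Its partner Itgb1 had 0.93 and 1.00. Cd44 was at 71.4 CPM (64.0 to 79.4) against 45.4 (40.0 to 51.4) in the control library, under the limit, a ratio of 1.57 (1.33 to 1.86), and at 136 against 126 CPM in the injured one, a ratio of 1.08. Itgav, at 40.1 and 26.2 CPM, and Itgb3, at 2.96 and 2.84 CPM, were low. The neighbouring bone matrix gene Ibsp was at 8.03 and 6.94 CPM, Dmp1 at 56.6 and 51.7 CPM, and Mepe at 0 in both libraries.

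Most osteochondrogenic genes were too low to compare. Of its 25 genes 5 reached 100 CPM: Mgp (a calcification inhibitor) had ratios of 1.247 and 1.22, Fmod (fibromodulin) 1.296 and 1.22, Gas6 (a TAM receptor ligand) 1.14 and 1.22, Tnfrsf11b (osteoprotegerin) 1.06 and 1.03 and Ogn 0.96 and 0.96. The medians of the 5 were 1.14 and 1.22, and none of them is a bone-forming transcription factor. Runx2, the master factor of bone, had 5 UMIs in 4 control Spp1-high cells and 8 UMIs in 8 injured ones, 1.06 CPM (0.343 to 2.46) and 2.52 CPM (1.09 to 4.97). Spp1-low cells had 1 UMI and 14 UMIs, 0.182 CPM (0.00462 to 1.02) and 1.302 CPM (0.712 to 2.18), so the counting intervals of both kinds of cell overlapped in each library. Alpl was at 1.06 and 0 CPM, Bglap at 0.422 and 0.631 CPM, and Sox9 at 21.1 and 24.9 CPM, against 17.7 and 28.6 CPM in Spp1-low cells.

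Genes of the synthetic or modulated state lay close to the median gene. Of 18 compared in the control library 16 were above 1, and of 19 in the injured library 17. Their medians were 1.06 and 1.08, against 1.02 for all genes in each library. Those past 1.5 were Vcam1 and Fn1 in the control library and Vcam1 in the injured one, against 0.214% and 0.153% of all compared genes. S100a10 had 1.24 and 1.34 and S100a4, a marker of modulated VSMCs, 1.21 and 1.06. Klf4, a driver of VSMC modulation, was at 1653 against 1602 CPM and 1555 against 1646 CPM, ratios of 1.03 and 0.94, and Vim (vimentin) had 0.96 in both. Lgals3, a galectin of modulated VSMCs, was at 52.8 against 34.3 CPM and 27.1 against 22.6 CPM.

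The contractile list lay slightly below the median gene. Of 18 contractile genes outside the choice of cells that were compared, 15 were below 1 in the control and 14 in the injured library, and 0 were past 1.5. The medians were 0.92 and 0.94, against 1.02 for all genes in each library. The share of all compared genes above or below 1 is not given here, so such counts are a description in every list. Smtn (smoothelin) had 0.90 and 0.84, Lmod1 (leiomodin 1) 0.90 and 0.89, Tpm2 (beta tropomyosin) 0.90 and 0.90, and Mylk (myosin light chain kinase) 0.92 and 0.94. The 6 genes used in the choice of cells are not counted here: as a description, Myh11 had 0.87 and 0.93, Acta2 0.92 and 0.98 and Cald1 1.03 and 1.05.

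**Figure D4:**
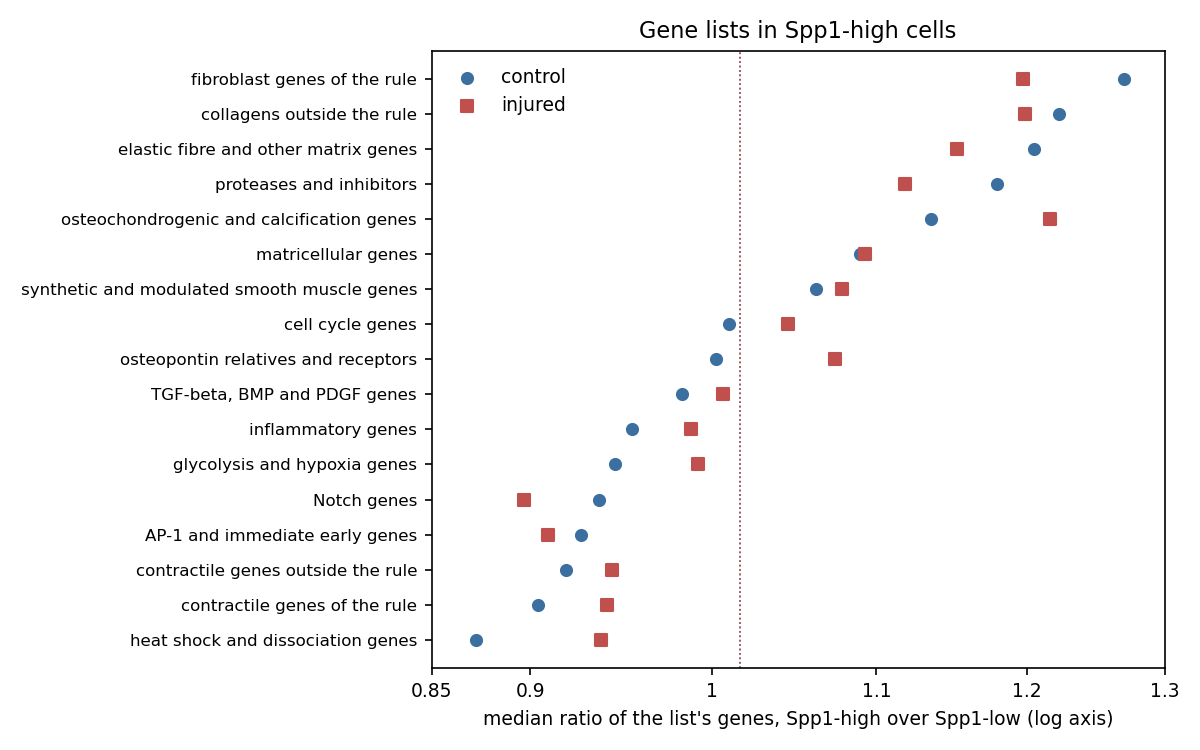
Median ratio of Spp1-high over Spp1-low cells over the compared genes of each of 17 lists (horizontal axis, logarithmic), in the control (circles) and injured (squares) library, with dotted lines at the medians of all genes (1.02 in each). Matrix and protease lists lie right of the lines in both libraries. Lists of heat shock genes, immediate early genes and contractile genes outside the choice of cells lie left of the lines in both. The contractile and fibroblast genes of the choice of cells are also among the 17 lists and are shown as a description. The medians of the Notch genes, and of the osteopontin relatives and receptors in the control library, rest on 2 genes.

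Stress and signalling lists lay below the median gene or near it. Of the immediate early genes 13 of 16 were below 1 in the control and 13 of 15 in the injured library, with medians of 0.93 and 0.91. Fos had 0.89 and 0.79, and Egr1, at 2096 against 2485 CPM and 2459 against 2929 CPM, had 0.84 in both. Of 9 heat shock genes 9 were below 1 in the control and 8 in the injured library, with medians of 0.87 and 0.94. Both lists are also known to respond to tissue dissociation, whose part in these ratios was not tested. Of the TGF-beta, BMP and PDGF genes, 9 and 10 were compared, and the medians were 0.98 and 1.01, with Id1 and Id3 (the latter 0.96 and 0.90) below 1 and Ltbp1 at 1.22 and 1.21. The 2 Notch targets compared were Hes1 (0.91 and 0.82) and Hey2 (0.96 and 0.97), and Notch1 was at 73.1 against 63.9 CPM and 88.6 against 69.9 CPM. Inflammatory genes (4 and 5 compared) had medians of 0.95 and 0.99, glycolysis and hypoxia genes (11 and 11) 0.95 and 0.99, and cell cycle genes (4 and 4) 1.01 and 1.05. Mki67, the proliferation marker, was at 8.45 against 5.66 CPM and 9.15 against 7.63 CPM, and Top2a at 1.06 and 0.631 CPM.

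The injured and control libraries differed in far more genes than Spp1-high and Spp1-low cells did. Of 1372 genes compared in Spp1-high cells, 130 were past 1.5 in the higher (9.48%) and 237 in the lower direction (17.3%) in the injured library. With TMM scaling these were 165 and 180. In Spp1-low cells 134 of 1328 genes were higher (10.1%) and 221 lower (16.6%). Both libraries pooled the same rats, but the library, the side of the artery and the injury cannot be told apart in this difference.

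Leaving aside mitochondrial genes, features without a gene symbol and the doubled symbol Rps27a, the 8 genes with the highest injured over control ratios in Spp1-high cells were Susd6, Hk2, Nars, Nfe2l1, Tra2a, Nmt1, Pycard and S100a4. Hk2 (hexokinase 2, the first step of glycolysis) was at 838 CPM (806 to 871) against 367 CPM (350 to 385), a ratio of 2.28, and the ratio was 2.28 in Spp1-low cells as well. Nars, an asparaginyl tRNA synthetase, had 2.27 against 2.43 in Spp1-low cells, and Nmt1 (N-myristoyltransferase 1) 2.12 against 2.35. S100a4 was at 2154 against 1060 CPM, a ratio of 2.03 against 2.32. Susd6 had 2.30, Nfe2l1 (a factor of proteasome genes) 2.17, Tra2a (a splicing factor) 2.16 and Pycard 2.10. All 8 were past 1.5 in Spp1-low cells too, at 1.91 to 2.43. Susd6 (171 against 74.3 CPM), Tra2a (173 against 80.3 CPM) and Nmt1 (211 against 99.3 CPM) reached the mean of 100 CPM only through the injured cells.

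The 8 lowest by the same rule were Rps2, Ppia, Rps10l1, RT1-CE4, H3f3b, Rps20, Rpl36 and Mpc1. Rps2, a ribosomal protein gene, was at 757 CPM against 2204 CPM, a ratio of 0.34, and 0.35 in Spp1-low cells. Ribosomal protein genes, Ppia and H3f3b have many near-identical copies and RT1-CE4 belongs to a multigene family of class I molecules, so their counts may have been split between copies and are uncertain. Rps27a, a ribosomal protein gene listed under 2 identifiers, had values in both directions: one was at 1929 against 664 CPM (ratio 2.91) and the other at 603 against 1484 CPM (ratio 0.41). Mpc1 (a mitochondrial pyruvate carrier subunit) had 0.42 against 0.50. RT1-CE4 (92.1 against 250 CPM), H3f3b (77.0 against 207 CPM) and Mpc1 (90.5 against 218 CPM) reached the mean of 100 CPM only through the control cells.

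Among the genes past 1.25 in Spp1-high cells of both libraries, Postn had an injured over control ratio of 1.02 (0.94 to 1.10) in them, Gja1 1.00 (0.92 to 1.08) and Mmp2 0.96 (0.88 to 1.05). The other five outside the choice of cells were lower in the injured library. Vcam1 had 0.74 (0.66 to 0.83), Fn1 0.77 (0.71 to 0.83) and Sparc 0.62 (0.61 to 0.64), with 0.81, 0.86 and 0.65 in Spp1-low cells. Prss23 had 0.63 (0.58 to 0.67) and Ltbp2 0.78 (0.73 to 0.84), with 0.58 and 0.87 in Spp1-low cells. Id1, which was lower in Spp1-high cells, had 0.47 (0.43 to 0.51), and 0.60 in Spp1-low cells. Of the 6 contractile genes of the choice of cells, 4 were below 1, Acta2 at 961 against 1698 CPM (ratio 0.57, and 0.53 in Spp1-low cells), Tagln at 0.74, Myl9 at 0.79 and Cald1 at 0.94, while Myh11 had 1.10 and Cnn1 1.05. Of the 18 contractile genes outside it, 15 were below 1, with a median of 0.89, and 0.88 in Spp1-low cells. Past 1.5 in the lower direction were 3 of these 18, a share similar to that over all genes (237 of 1372, 17.3%). The median ratio of all genes was 0.93 in Spp1-high and 0.91 in Spp1-low cells, and the ratios above include that shift.

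**Figure D5:**
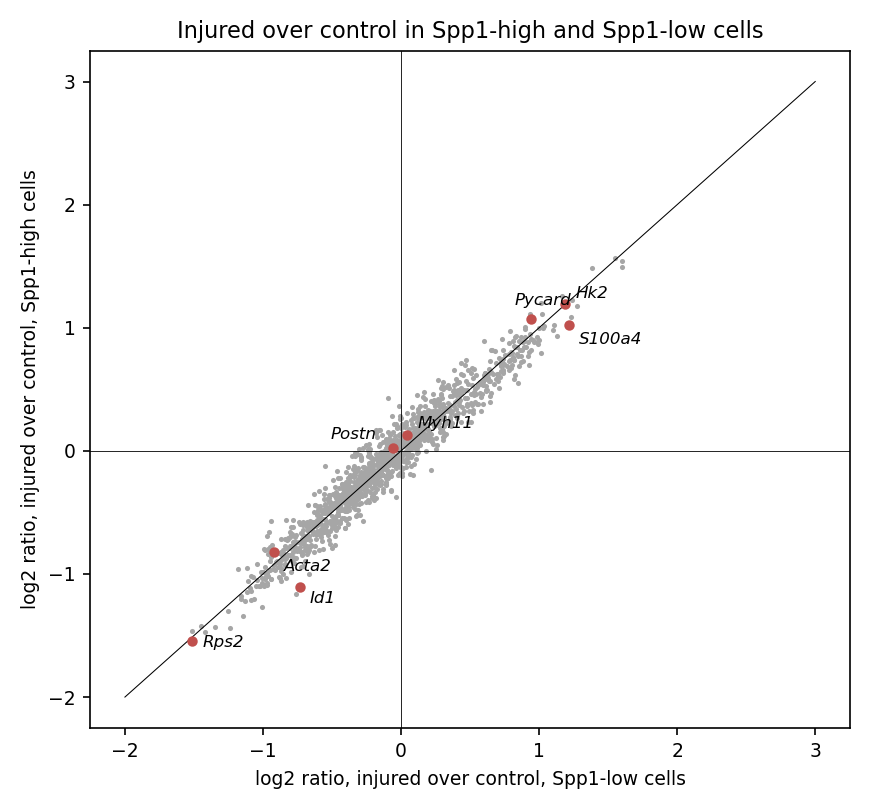
Log2 ratio of the injured over the control library for each gene in Spp1-low cells (horizontal axis) and in Spp1-high cells (vertical axis), with the line of equal ratios drawn. The points lie along the line, with Hk2 at a ratio of 2.28 in both and Rps2 at 0.35 and 0.34, and Id1 lies below it at 0.60 and 0.47.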

How the data were processed

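The authors deposited 1 matrix of raw UMI counts per gene and cell, made with Cell Ranger, which runs STAR, and the submitters' processing notes name Rnor_6.0 and Seurat. Cells were assigned to the libraries by their barcode suffix, since 3321 and 5656 barcodes are the numbers stated for control and injured arteries. Whether 1 library was sampled down before deposit is not given in the sources used here.

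UMI counts were summed over cells and scaled to 1000000 (CPM) without Spp1, and ratios were compared at a mean of at least 100 CPM. The lists, members and rules were chosen with earlier results of these data known. Named genes were those past 1.5 in both libraries (up to 12 higher and 8 lower), up to 5 per library and direction past 1.5 in 1 library, and the 8 highest and 8 lowest ratios of injured over control, without the genes of the choice of cells, mitochondrial genes, features without a symbol and symbols with 2 identifiers. Chosen after their values were seen were the 1.25 limit, the genes past it in both libraries, the 12 lowest genes, genes of the stricter Spp1 limit, the p53 and latent TGF-beta binding protein lists, and 2 alternatives that left out cells. Of the lists, Trbc2, Col1a2, Col6a3, Hspg2, Pecam1, Hspa1a, Hba-a1, Hba-a2 and Trp53inp1 were not analysed here. Scrublet called 12 of 1999 control (0.600%) and 3 of 4659 injured cells (0.0644%), none of them Spp1-high; at so low a rate in the injured library it is no check, and doublets were left in. The calculations were tested on simulated data. Calculations ran in Python 3.11.15 with pandas 2.3.3, scipy 1.17.1 and numpy 2.4.6, Scrublet in scanpy 1.11.5, plots in matplotlib 3.10.9, and TMM factors in edgeR 4.0.16 under R 4.3.3.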

Additional observations from a re-analysis of the deposited data

How the results depend on the processing

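No paired analysis was possible because each group was 1 library, and no library could be left out. All counts are of genes past 1.5, higher and then lower, unless said otherwise. With at least 5 Spp1 UMIs and 0.1%, Spp1-high cells were 4.38% and 3.78% of smooth muscle cells (control and injured), with 48 and 21 genes in the control library, 24 and 12 in the injured one and 8 and 7 in both. With a contractile share of at least 2% the shares were 32.8% and 17.4%, and 1 gene was higher in both, since Vcam1 (ratios 1.94 and 1.68) was under the mean of 100 CPM in the injured library. With thinning to 5000 UMIs the shares were 21.7% and 17.0%. In the injured library the share was 33.2% with thinning to 2000 UMIs and the Spp1 limit lowered to 1 UMI together, and 24.2% in cells of at least 5000 UMIs. With Spp1-low cells weighted to the same depth, or with means of per-cell CPM, 0 genes were lower in the injured library, with Id1 at 0.68 and 0.67. Against cells with 0 Spp1 UMIs there were 6 and 1 genes in the control and 5 and 0 in the injured library. At 50 CPM, 6 genes were higher in the control and 3 lower in the injured library, and injured over control gave 206 and 418. With no CPM minimum and 10 UMIs there were 688 and 702 genes in the control library, 814 and 984 in the injured one, 116 and 150 in both, and 1069 and 2244 for injured over control, where few UMIs per gene limit the ratios. At a ratio of 2, 1 gene was higher and 0 lower in the injured library, 1 was higher in both, and injured over control gave 18 and 42. At 1.25, added after the data were seen, there were 32 and 7, 25 and 5, and 9 higher in both. Apart from these limits the cause of each shift was not tested. Over 12 settings the 20 named genes of the Spp1 comparison had 480 ratios, of which 0 changed direction. These genes were picked for ratios on the same side in both libraries, and the settings largely share the same cells. The count is therefore a description and no test. Postn ranged from 1.90 to 4.24 and from 1.95 to 3.06, Vcam1 from 1.81 to 4.87 and from 1.68 to 2.495. Of the 9 genes past 1.25 in both libraries, the 8 outside the choice of cells (without Col3a1) were above 1 in every setting run. By ratio, 4 of these 8 stayed past 1.25 in both with depth weighting and 5 with TMM scaling. There were 6 each with a contractile share of at least 2%, a fibroblast share under 0.5%, at least 5000 UMIs or means of per-cell CPM. The count was 7 without cells holding 3 or more macrophage UMIs. At a contractile share of at least 2% the 6 include Vcam1, which was under the mean of 100 CPM in the injured library. At 1.25, the genes lower in both were 2 with TMM scaling and 1 each with depth weighting and a contractile share of at least 2%. There were 2 against cells with 0 Spp1 UMIs, 1 at 50 CPM, 24 with the stricter Spp1 limit and 430 with no CPM minimum.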

Other observations

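A few chemokine and cytokine genes were high in single Spp1-high cells. Ccl2, which attracts monocytes, was at 77.9 CPM in injured Spp1-high cells against 15.7 CPM in Spp1-low cells, but 1 cell held 163 of its 247 UMIs and the top 3 cells 88.3%. In the control library Ccl2 was at 11.4 against 22.4 CPM. Ccl7, a related chemokine, was at 12.9 against 2.98 CPM in the injured library, with 68.3% of its UMIs in 3 cells. Cytl1 was at 12.2 CPM in control Spp1-high cells (1.82 in Spp1-low cells), with 52 of 58 UMIs in 1 cell. These sums describe single cells more than the Spp1-high cells as a class.

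Target genes of p53, a list made after values were seen, were split: 4 of 7 compared were above 1 in the control and 5 of 8 in the injured library, with medians of 1.21 and 1.10. Cells with both the contractile and the fibroblast share at 1% or more, 65 in each library and outside the Spp1-high class, held Spp1 at 410 CPM (362 to 462) in the control and 232 CPM (194 to 275) in the injured library, with 44.98% and 37.8% of it in 5 cells.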
